A study of Mus musculus with 52 samples.

Results

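The hippocampus of mice given insulin at a high rate was compared with the hippocampus of mice given insulin at a low rate, gene by gene, as high minus low. The comparison rests on 12 of the 52 libraries of the series, chosen by their titles: 6 from the high rate and 6 from the low rate. All mice were 3-month-old C57BL/6J males, an inbred laboratory strain, that carried a catheter in a jugular vein and were conscious during 3 h of infusion. Insulin ran at 12 mU/kg/min (high) or 4 mU/kg/min (low), and a glucose infusion was adjusted to hold blood glucose, which is called a clamp. Another 6 hippocampal libraries, the basal group, came from mice given saline, and they enter the fit so that all 18 share an estimate of the spread. The labels do not tie libraries to separate animals, and p-values therefore reflect the spread among libraries, which may be technical. Libraries are numbered 1 to 6 within a group by their order in the series. Hippocampal libraries of equal number carry neighbouring title tags and are treated as 1 run of tags, and the labels do not say that they share an animal, a litter or a day.

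Insulin reaches the brain from the blood across the endothelium and the choroid plexus, the tissue that makes cerebrospinal fluid. It binds the insulin receptor, which works through the adaptor proteins Irs1 and Irs2 on phosphatidylinositol 3-kinase and the kinase AKT. In tissues that respond, AKT keeps FOXO transcription factors out of the nucleus and raises the activity of SREBP transcription factors, which drive the genes of sterol and fatty acid synthesis. The hippocampus, a seat of memory, is rich in insulin receptors. A higher infusion rate at a held glucose level asks whether more insulin, and not a change of glucose, alters gene expression there.

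No gene passed the test between the high and the low rate. Of 13515 genes tested with edgeR's quasi-likelihood test, 0 (0%) passed an adjusted p of 0.05 in either direction, and the smallest adjusted p was 0.9997, a value that every gene named below shares. The count at an unadjusted p under 0.05 was 384 (2.84%), of which 175 lay higher and 209 lower at the high rate. If no gene differed, about 676 of the 13515 would fall under that threshold by chance. DESeq2 and limma-voom also called 0 genes, with 566 and 337 at an unadjusted p under 0.05. The 566 are of 27904 genes, as DESeq2 was run without the filter on low counts, and the 337 are of 13515. In the plot of fold change against level, the cloud is centred on 0, with a median log2 fold change of 0.00 and 6846 genes above 0.

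**Figure D1:**
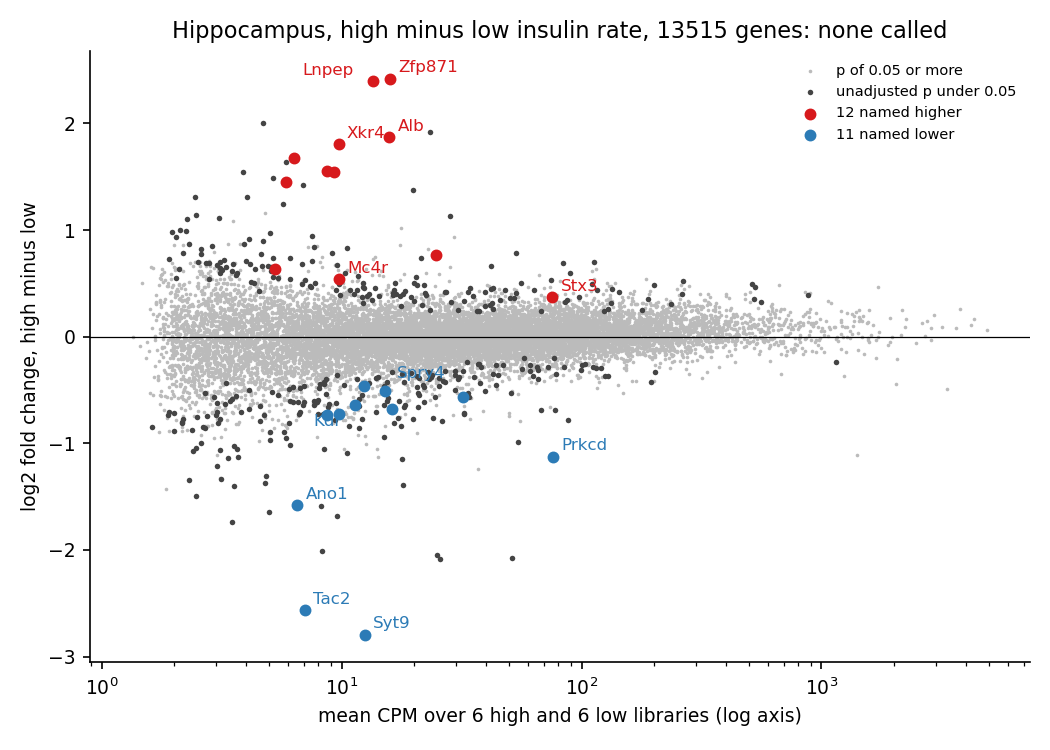
Log2 fold change of each of 13515 genes, high minus low, against its mean level in CPM (counts scaled to a common library total, log axis) over the 12 libraries. Dark points are the 384 genes with an unadjusted p under 0.05, and red and blue points are 12 higher and 11 lower genes among those leading by p; 0 genes passed the adjusted threshold.

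The size of a difference that the libraries leave room for can be read from the 95% intervals, which hold for 1 gene at a time. The median interval reached 0.40 to either side of the log2 fold change. The whole interval lay inside a 2-fold change in either direction for 12145 genes (89.9%) and inside a 1.5-fold change for 7761 (57.4%). Absolute log2 fold changes had a median of 0.12 and exceeded 1 in 67 genes, 26 higher and 41 lower.

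The receptors and adaptors of insulin signalling held overlapping levels at both rates. Insr, the insulin receptor, ranged from 83.7 to 136 CPM at the high rate (median 115; mean 114 ± 18.5, SD, n = 6) and from 56.6 to 128 CPM at the low rate (mean 97.3 ± 25.1, SD, n = 6). The log2 fold change of Insr was 0.22, with a 95% interval from -0.14 to 0.58, and the groups overlapped widely. The fold change of Insr was 0.12 without low library 5, which held the lowest of the 12 values. Igf1r, the receptor of insulin-like growth factor 1, had a log2 fold change of -0.15 (interval -0.67 to 0.37). Irs1 was at -0.17 (interval -0.78 to 0.44), and in low library 5 it stood at 4.20 CPM while the other low libraries held 16.0 to 20.3 CPM. Irs2, an adaptor whose gene insulin lowers in liver, was at 0.21 (interval -0.23 to 0.65). Without low library 5 Irs1 was at -0.36 and Irs2 at 0.07. Gab1, a docking protein of growth factor receptors, had the smallest unadjusted p of the 18 list members, 0.0655 by edgeR, with 37.3 to 48.9 CPM at the high rate and 35.7 to 91.2 CPM at the low rate. The 91.2 CPM came from low library 5, and the log2 fold change of Gab1 of -0.34 became -0.10 without it.

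Downstream of the receptor, the 25 tested genes of the AKT and mTOR arm had 18 members above 0, a median log2 fold change of 0.07 and none at an unadjusted p under 0.05. Rictor, the subunit that defines mTOR complex 2, was at 0.37 (interval -0.11 to 0.86), and Pdpk1, the kinase that activates AKT, was at 0.24 (interval -0.13 to 0.61). Leaving out high libraries 5 and 6 brought Rictor to 0.03, and leaving out low library 5 brought Pdpk1 to 0.15. Of 21 FOXO factors and fasting-responsive targets, 8 lay above 0, with a median of -0.01. Foxo1 was at 0.22 (interval -0.15 to 0.58). Foxo4 was at -0.30 (interval -0.70 to 0.11), and at -0.11 without low library 5. Txnip, a brake on glucose uptake that is known to respond to glucose and insulin, held 19.9 to 50.1 CPM at the high rate and 25.9 to 60.6 CPM at the low rate, a log2 fold change of -0.21 (interval -0.68 to 0.26). Pdk4, a kinase that turns off glucose oxidation in fasting, was at -0.15 (interval -0.59 to 0.29). Without low library 5 Txnip was at -0.05 and Pdk4 at 0.025.

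Sterol genes overlapped in level between the rates. Insig1, which keeps SREBP from leaving its membrane store and whose gene SREBP in turn drives, ranged from 41.6 to 65.6 CPM at the high rate (median 52.5) and from 41.3 to 67.8 CPM at the low rate (median 58.2). Between the rates it differed by a log2 fold change of -0.08, with an interval from -0.34 to 0.19. All 12 of these values lay above the 6 basal libraries, which held 31.5 to 41.3 CPM, the lowest of the 12 only just so.

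Of 33 tested sterol and fatty acid genes, 27 lay below 0 at the high rate, with a median log2 fold change of -0.08, against 6669 of 13515 genes below 0 in all and a median of 0.00. Without low library 5, 17 of the 33 lay below 0, with a median of -0.01. None of the 33 had an unadjusted p under 0.05, and all 33 intervals lay inside a 2-fold change. Their summed level was 3482 to 3861 CPM in the high libraries, 3739 to 4163 CPM in the low libraries and 3226 to 3566 CPM in the basal libraries, so the high group overlapped both others. Fdft1, which makes squalene, had the smallest unadjusted p of the list by edgeR, 0.0995, with a log2 fold change of -0.37. It reached 84.8 CPM in low library 5 against at most 48.4 CPM in the other low libraries, and without that library its log2 fold change was -0.09. Fasn, the fatty acid synthase, and Srebf1, the gene of SREBP1, were at -0.06 and -0.07.

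**Figure D2:**
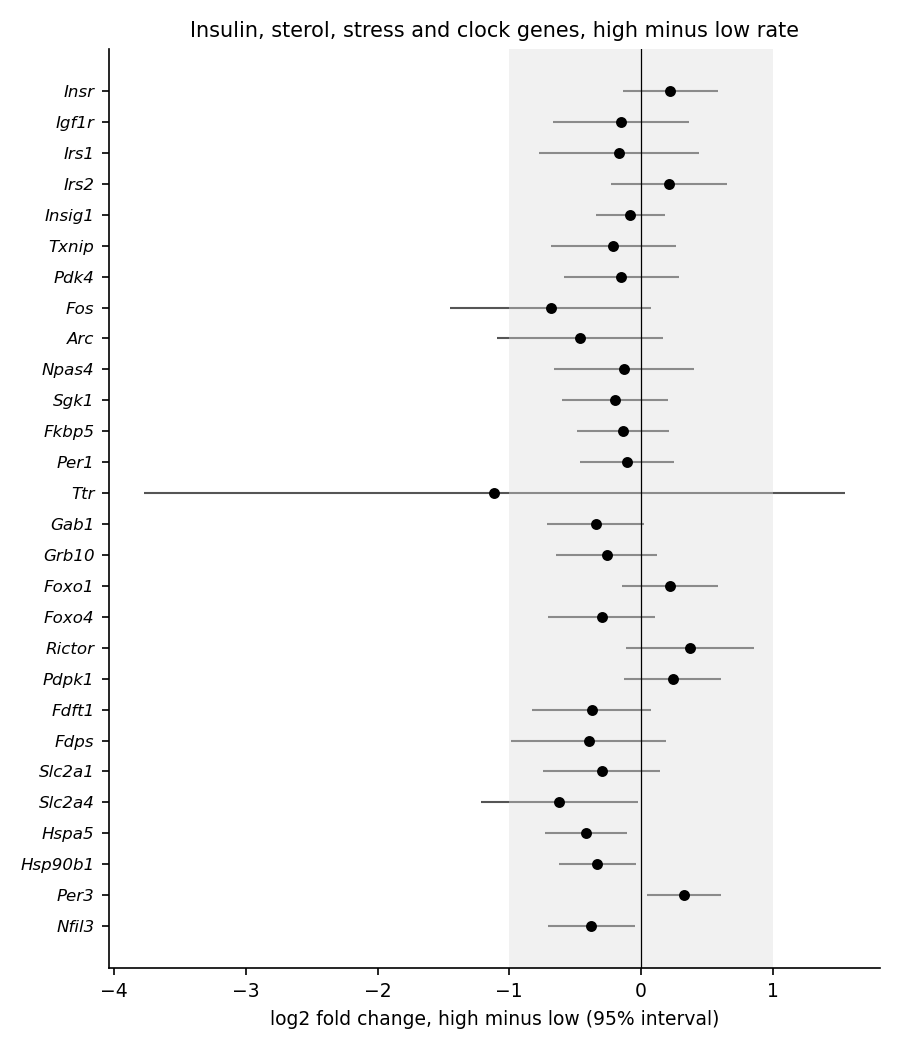
Log2 fold change, high minus low (points), with its 95% interval (lines), for 14 genes fixed by name and 14 further list members. The grey band spans a 2-fold change in either direction; the intervals of Slc2a4, Hspa5, Hsp90b1, Per3 and Nfil3 lie to one side of 0, and Ttr has the widest interval.

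Glucose transporters and energy genes overlapped between the rates as well. Slc2a4, the transporter that insulin moves to the surface of muscle and fat cells, held 1.72 to 3.83 CPM at the high rate and 2.14 to 5.55 CPM at the low rate, with a log2 fold change of -0.62 and an unadjusted p of 0.0430 by edgeR. It was the 1 gene of 28 in the transport and glycolysis list under 0.05, its groups overlapped, and its log2 fold change was 0.15 on leaving out libraries with more than 1000 CPM of choroid plexus markers, which keeps 2 high and 2 low libraries. Slc2a1, the main transporter of the blood-brain barrier, was at -0.30 (interval -0.74 to 0.15), and at -0.08 without low library 5. Slc16a7, which carries lactate and pyruvate into neurons, was at 0.66 (interval -0.01 to 1.32), and at 0.04 without high libraries 5 and 6. Of 32 nuclear respiratory chain genes, 24 lay below 0 with a median of -0.08, and of 50 ribosomal protein genes 35 lay below 0 with a median of -0.06; neither list had a member under an unadjusted p of 0.05. Both counts turned with single libraries. Without low library 5, 13 respiratory chain and 14 ribosomal protein genes lay below 0, and without high library 1 there were 30 and 48.

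Chaperones of the endoplasmic reticulum lay lower at the high rate without passing the threshold. Hspa5, the chaperone that senses unfolded protein, ranged from 137 to 197 CPM at the high rate (median 163; mean 167 ± 25.7, SD, n = 6) and from 171 to 323 CPM at the low rate (median 199.5; mean 223 ± 56.0, SD, n = 6). Its log2 fold change was -0.42 (interval -0.73 to -0.11), with an unadjusted p of 0.0108 by edgeR. The highest value, 323 CPM, was that of low library 5, and the log2 fold change was -0.27 without it. The basal libraries held 164 to 242 CPM of Hspa5, a range that overlapped both rates. Hsp90b1, another chaperone of that compartment, was at -0.33 (interval -0.62 to -0.04), and Calr, the calcium-binding chaperone calreticulin, at -0.35 (interval -0.71 to 0.00). Without low library 5 Hsp90b1 was at -0.22 and Calr at -0.18. Of the 27 tested genes of the unfolded protein and heat shock list 22 lay below 0, with a median of -0.17, and 2 had an unadjusted p under 0.05; without low library 5, 19 lay below 0, with a median of -0.10 and 1 under 0.05.

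Genes of the clock, of glucocorticoid action and of recent neuronal activity gave single values of small size. Per3, a repressor of the circadian clock, held 72.2 to 122 CPM at the high rate and 58.6 to 88.8 CPM at the low rate, a log2 fold change of 0.33 (interval 0.05 to 0.61). Nfil3, a repressor of clock output genes, held 11.0 to 14.0 CPM at the high rate and 12.9 to 24.0 CPM at the low rate, a log2 fold change of -0.38 (interval -0.71 to -0.04), and of -0.21 without low library 5. These were the only 2 of 20 clock genes at an unadjusted p under 0.05. Sgk1 and Fkbp5, which glucocorticoids raise, were at -0.19 (interval -0.60 to 0.21) and -0.13 (interval -0.48 to 0.21), and in both genes the highest of the 12 values was that of low library 5, at 589 CPM and 221 CPM. Without that library the fold changes were 0.04 and 0.05.

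Fos, the transcription factor gene that follows neuronal firing, ranged from 1.20 to 6.78 CPM at the high rate and from 3.14 to 9.83 CPM at the low rate, a log2 fold change of -0.69 (interval -1.45 to 0.07). Arc, which acts at active synapses, was at -0.46 (interval -1.09 to 0.17), with 72.5 CPM in high library 1 and 14.6 to 31.9 CPM in the other high libraries. The log2 fold change of Arc was -0.82 without that library and lay between -0.63 and -0.29 on leaving out any other single library. Npas4, induced by calcium entry, was at -0.13 (interval -0.66 to 0.41). Of 25 tested immediate early genes 18 lay below 0, with a median of -0.10 and none under an unadjusted p of 0.05. Bdnf, the neurotrophin linked to plasticity, was at -0.09 (interval -0.43 to 0.25).

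Ion channel and receptor genes lay more often above 0 than below, and low library 5 held the lowest sums. Of 38 potassium and HCN channel subunits 29 lay above 0 (median 0.07), of 36 GABA and glutamate receptor subunits 26 (median 0.10), and of 25 sodium and calcium channel subunits 17 (median 0.14). The summed sodium and calcium channel genes were at 2972 CPM in low library 5 and 4738 to 5644 CPM in the other low libraries, and at 4433 to 6040 CPM in the high libraries. Receptor subunits summed to 6242 CPM in that library and to 8495 to 11000 CPM in the other low libraries, and potassium and HCN channels to 3975 CPM against 5144 to 6197 CPM. The same library had the highest myelin sum, 18540 CPM, and the lowest dentate granule cell sum, 481 CPM. Without it the medians of the 3 lists were 0.04, 0.06 and 0.05, with 25, 24 and 15 members above 0, beside a median of 0.03 over all genes. Few members had an unadjusted p under 0.05 by edgeR: 2 potassium channel genes, 0 GABA or glutamate receptor genes and 4 sodium or calcium channel genes, split evenly between the directions. Cacng2, which carries AMPA receptors to the synapse, held 50.8 to 65.2 CPM at the high rate and 54.8 to 73.8 CPM at the low rate, a log2 fold change of -0.27 (interval -0.50 to -0.03). Kcna6, a voltage-gated potassium channel, was at -0.29 (interval -0.55 to -0.02), and at -0.16 without low library 5. Cacna1e, a calcium channel pore, was at 0.49 (interval 0.02 to 0.96), and at 0.20 without high libraries 5 and 6. Pdyn, the precursor of the dynorphin opioids, held 11.0 to 16.2 CPM at the high rate and 9.60 to 14.2 CPM at the low rate, a log2 fold change of 0.32 (interval 0.02 to 0.62).

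**Figure D3:**
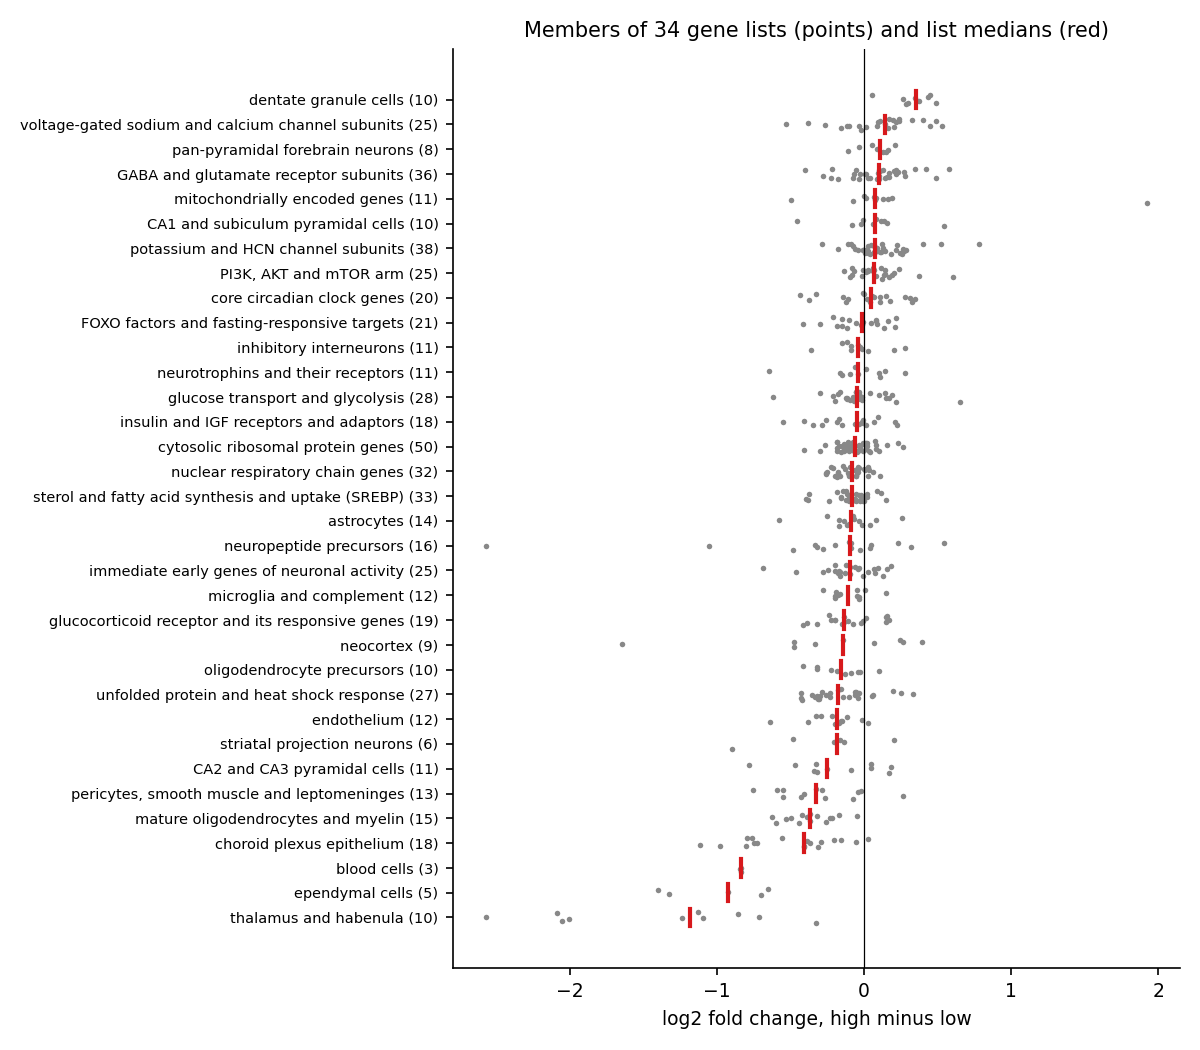
Log2 fold changes, high minus low, of the tested members (points, with small random vertical offsets) of 34 gene lists, ordered by the list median (red line); the number tested stands in parentheses. Most medians lie close to 0, the dentate granule cell list is the highest at 0.35 and the thalamus and habenula list the lowest at -1.18.

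The 12 higher genes chosen by p fell into 2 kinds by the libraries that held their high values. In 8 of them, Xkr4, Dgkh, Zfp871, Fzd3, Fam135b, Lnpep, Gucy1a2 and Dgki, high libraries 5 and 6 held the highest values of the 18. Except for Dgki, these genes had low-rate means of 3.07 to 4.95 CPM. They met the naming rule's mean of at least 5 CPM only through the high group. The choice by that mean and by p thus builds in part of this pattern. Zfp871, a zinc finger gene on chromosome 17 (GRCm38, 32765496 to 32788287, minus strand), stood at 63.9 and 72.8 CPM in those libraries. The other 4 high libraries held 4.90 to 7.41 CPM of Zfp871, the low libraries 1.40 to 9.68 CPM and the basal libraries 3.12 to 6.18 CPM. Its log2 fold change was 2.42 (interval 1.11 to 3.73), and 0.27 without high libraries 5 and 6. Lnpep, a membrane aminopeptidase that travels with the insulin-moved glucose transporter, stood at 56.0 and 66.4 CPM in those libraries against 1.52 to 6.54 CPM in the other high and 2.41 to 8.89 CPM in the low libraries. Without them the log2 fold change of Lnpep turned from 2.40 to -0.27.

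Xkr4, a membrane protein gene on chromosome 1 (3205901 to 3671498, minus strand), had the smallest unadjusted p of all genes, 0.000432 by edgeR. It stood at 27.1 and 37.5 CPM in high libraries 5 and 6, at 5.53 to 7.69 CPM in the other high libraries and at 2.20 to 6.03 CPM in the low libraries. The log2 fold change of Xkr4 was 1.81 (interval 0.91 to 2.70), and 0.57 without these libraries. Dgkh and Dgki, kinases that remove diacylglycerol, went from 1.55 and 0.77 to 0.45 and 0.17 on the same step, and Fzd3, a Wnt receptor of growing axons, from 1.68 to 0.26. Over all 13515 genes, 21 exceeded every other hippocampal library by more than 2 times in both of these libraries, a rule set after their values were seen. These 21 genes had a median transcript length of 3326 bases and a median GC content of 44.2%, against 1563 bases and 50.6% over all genes tested.

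The other 4 higher genes were Stx3, Mc4r, Slc35f2 and Alb. Stx3, a syntaxin of the synaptic membrane, held 74.7 to 97.1 CPM at the high rate (median 85.5; mean 85.2 ± 7.98, SD, n = 6) and 50.6 to 77.5 CPM at the low rate (median 64.2; mean 65.8 ± 10.0, SD, n = 6). Its log2 fold change was 0.37 (interval 0.15 to 0.60), and the basal libraries, at 78.9 to 90.1 CPM, lay with the high group. Mc4r, the melanocortin receptor known for its part in appetite, held 9.27 to 14.4 CPM at the high rate and 6.03 to 9.62 CPM at the low rate, a log2 fold change of 0.54 (interval 0.17 to 0.91). Slc35f2, a membrane transporter gene, held 5.32 to 7.69 CPM and 3.20 to 5.58 CPM, a log2 fold change of 0.63. With a low-rate mean of 4.12 CPM, Slc35f2 too met the rule of at least 5 CPM only through the high group. In each of these 3 genes the groups overlapped only at their edges. Alb, the serum albumin gene, owed its log2 fold change of 1.87 to high library 3, at 98.8 CPM against 5.67 to 16.4 CPM in the other high libraries, and it was 0.62 without that library.

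**Figure D4:**
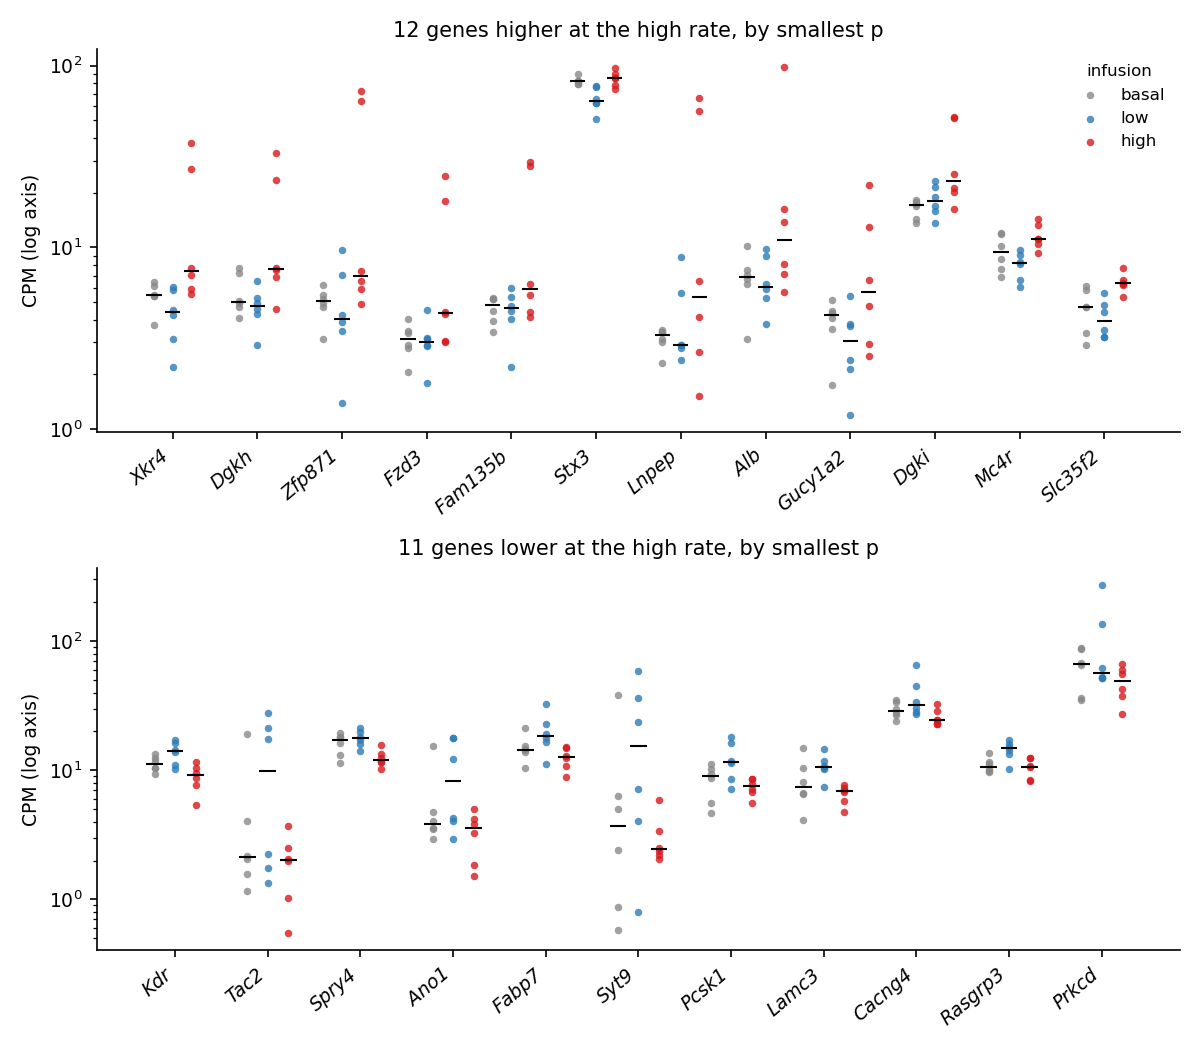
Level in CPM (log axis) of 12 higher and 11 lower genes among those leading by p, in each of the 18 hippocampal libraries (points, coloured by infusion), with group medians as black bars. In 8 of the higher genes the top points are high libraries 5 and 6, and in Tac2, Ano1 and Syt9 the 3 top low points are low libraries 1, 2 and 5.

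Among the lower genes chosen by p, Kdr, Spry4 and Lamc3 serve vessels, growth factor signalling and basement membranes. Kdr, the endothelial receptor of vascular endothelial growth factor, held 5.38 to 11.5 CPM at the high rate (median 9.16; mean 8.90 ± 2.18, SD, n = 6) and 10.2 to 17.1 CPM at the low rate (median 14.2; mean 13.8 ± 2.76, SD, n = 6). Kdr had a log2 fold change of -0.64 (interval -1.02 to -0.26) and an unadjusted p of 0.00214 by edgeR, and the basal libraries lay at 9.29 to 13.4 CPM. Spry4, an inhibitor of growth factor receptor signalling, held 10.3 to 15.7 CPM at the high rate and 14.2 to 21.2 CPM at the low rate, a log2 fold change of -0.51. Lamc3, a laminin chain of basement membranes, held 4.78 to 7.69 CPM and 7.40 to 14.7 CPM, a log2 fold change of -0.73. In each of these 3 genes the ranges of the groups overlapped.

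Kdr was the member with the smallest p of the endothelial list, of which 11 of 12 tested members lay below 0, with a median of -0.18 and 1 at an unadjusted p under 0.05. Without high libraries 5 and 6, 7 of the 12 lay below 0, with a median of -0.10. The summed level of the endothelial genes was 222 to 369 CPM in the high libraries and 326 to 378 CPM in the low libraries, and high libraries 4, 5, 3 and 6 lay below every low library. In bulk RNA, fewer cells of a type and less RNA per cell cannot be told apart.

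Tac2, Syt9, Ano1 and Prkcd formed a second set, with large fold changes and uneven low libraries. Tac2, Syt9 and Ano1 had high-rate means of 1.98, 3.06 and 3.27 CPM. They met the naming rule's mean of at least 5 CPM only through the low group, so the choice builds in part of this pattern. Tac2, the precursor of neurokinin B, stood at 28.0, 17.6 and 21.4 CPM in low libraries 1, 2 and 5, at 1.34 to 2.23 CPM in the other low libraries and at 0.549 to 3.72 CPM in the high libraries. Syt9, a calcium sensor of vesicle release, stood at 36.4, 59.2 and 23.6 CPM in the same 3 libraries, at 0.802 to 7.20 CPM in the other low libraries and at 2.06 to 5.84 CPM in the high libraries. The log2 fold changes of Tac2 and Syt9 were -2.57 and -2.79, and without these 3 low libraries they were 0.17 and -0.40. Ano1, a chloride channel, went from -1.58 to -0.20 on that step. Prkcd, a protein kinase C strongly expressed in thalamus, went from -1.13 to -0.12, with 272 CPM in low library 2 and 135 CPM in low library 5 against 52.0 to 61.8 CPM in the other low libraries.

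Fabp7, Pcsk1, Cacng4 and Rasgrp3, also among the lower genes, were at log2 fold changes between -0.72 and -0.46. Pcsk1, which cleaves prohormones, held 5.60 to 8.55 CPM at the high rate and 7.20 to 18.3 CPM at the low rate. Rasgrp3, an activator of Ras that responds to diacylglycerol, held 8.30 to 12.4 CPM and 10.1 to 17.3 CPM. Fabp7, a fatty acid carrier of glial cells, was highest in low library 5 at 32.6 CPM. Without that library its log2 fold change of -0.68 was -0.48. Cacng4, an auxiliary subunit of AMPA receptors, went from -0.56 to -0.34 on the same step.

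Across all genes, 9 (0.0666%) had high and low libraries that did not overlap in CPM, and they are named here after their values were seen. None of the 9 passed the adjusted threshold. With 6 libraries per group, some of 13515 genes would separate fully even with no difference between the rates. Whether 9 is more than that was not tested, and the 9 are not read as an effect of the rate. Higher in all 6 high libraries were 1110018N20Rik, 0610040B10Rik, Nktr and Traf3ip2. Lower were Ebf1, Grid2ip, P4ha1, Tacr1 and Rcan3. P4ha1, an enzyme that modifies collagen, had a mean of 54.2 ± 5.24 CPM at the high rate (SD, n = 6) and 67.7 ± 11.4 CPM at the low rate (SD, n = 6), a log2 fold change of -0.32. Rcan3, a regulator of calcineurin, had means of 33.9 ± 2.16 and 40.5 ± 2.00 CPM (SD, n = 6 each), a log2 fold change of -0.26. Nktr, a cyclophilin-related gene, had means of 194 ± 16.1 and 163 ± 20.4 CPM (SD, n = 6 each), a log2 fold change of 0.25. Ebf1 and Tacr1 had means under 6 CPM in both groups. 0610040B10Rik is annotated as antisense, and its reads cannot be told apart from those of an overlapping gene unless counting used strand.

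The tissue label was checked against marker genes. All 10 dentate granule cell markers, 10 CA1 and subiculum markers, 11 CA2 and CA3 markers and 8 pan-pyramidal markers were expressed, and of 10 hypothalamic markers 0 passed the filter on low counts. That filter was also passed by all 18 choroid plexus markers, all 10 thalamus and habenula markers and 6 of 10 striatal markers. Passing it is therefore not particular to hippocampal markers. Camk2a, a kinase of forebrain excitatory neurons, averaged 4561 ± 505 CPM at the high rate and 4064 ± 961 CPM at the low rate (SD, n = 6 each). The 10 dentate markers all lay above 0, with a median log2 fold change of 0.35 and 2 at an unadjusted p under 0.05; without low library 5, 9 lay above 0, with a median of 0.24 and none under 0.05. Dsp, desmoplakin, held 103 to 192 CPM at the high rate and 46.2 to 147 CPM at the low rate, a log2 fold change of 0.45. Prox1, the factor that sets granule cell identity, was at 0.49 (interval -0.11 to 1.09). The summed dentate markers were 698 to 1469 CPM in the high, 481 to 1119 CPM in the low and 820 to 1681 CPM in the basal libraries; the lowest of all was low library 5.

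Markers of tissue that borders the hippocampus varied by library more than by rate, as the plot of marker sums shows. The 18 choroid plexus markers summed to 332 to 9842 CPM in the high libraries (median 1985) and to 434 to 11870 CPM in the low libraries (median 4631). Ttr, the thyroid hormone carrier that defines choroid plexus epithelium, ranged from 12.2 to 2521 CPM at the high rate and from 21.4 to 5355 CPM at the low rate, a log2 fold change of -1.11 (interval -3.77 to 1.55). Of these 18 markers 17 lay below 0, with a median of -0.41 and none at an unadjusted p under 0.05. The 5 tested ependymal markers lay below 0, with a median of -0.92. Rarres2, or chemerin, was the 1 ependymal marker under 0.05, at a log2 fold change of -1.40 and at -0.10 without low libraries 1, 2 and 5.

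The 10 thalamus and habenula markers all lay below 0, with a median log2 fold change of -1.18 and 6 at an unadjusted p under 0.05, none past the adjusted threshold. Their sum was 161 to 224 CPM in the high libraries and 161 to 1030 CPM in the low libraries, where libraries 2, 5 and 1 stood at 1030, 469 and 363 CPM. Basal library 6 stood at 598 CPM. Tac2, Prkcd and Calb2 are members of this list. Calb2, the calcium-binding protein calretinin, had a log2 fold change of -2.05, and 0.07 without low libraries 1, 2 and 5. With the log2 sum of the list as a covariate, Syt9 went from -2.79 to -0.46 and Ano1 from -1.58 to -0.50; neither gene is on the list. Of the 134 genes that the naming rule takes, 43 shrank by more than 1.5 times or changed sign with this covariate, 10 of them changing sign. The 134 include list members, whose own counts enter the covariate, and genes chosen by p in these data. The same share over all genes was not taken, so the count does not show what the covariate does in general. Ttr went from -1.11 to -0.06, Fabp7 from -0.68 to -0.39, Slc2a4 from -0.62 to -0.31 and Txnip from -0.21 to 0.00. Kdr, at -0.60, and Stx3, at 0.38, moved little with this covariate. The median of the choroid plexus markers went from -0.41 to 0.15. On leaving out libraries with more than 1000 CPM of choroid plexus markers, which keeps 2 high and 2 low libraries, Kdr was at -0.65 and Stx3 at 0.19. Fewer thalamic cells in a dissected piece and less RNA per cell were not separated.

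Myelin genes repeated the pattern of a single library. All 15 oligodendrocyte and myelin markers lay below 0, with a median of -0.36 and none at an unadjusted p under 0.05. Their sum was 5702 to 7899 CPM in the high libraries, and in the low libraries it was 18540 CPM in library 5 and 6114 to 8770 CPM in the others. Mbp, myelin basic protein, stood at 9098 CPM in low library 5 and at 2615 to 3416 CPM in the other low libraries, beside 2210 to 3196 CPM in the high libraries. Without that library the log2 fold change of Mbp was -0.04 in place of -0.49, and the median of the list was -0.09. Of the 134 genes that the naming rule takes, 56 shrank by more than 1.5 times or changed sign without low library 5, against 0 to 17 on leaving out any other single library. The 134 include genes chosen by p in these data and members of lists in which low library 5 stood apart. The same share over all genes was not taken, so the 56 do not describe genes in general. The basal libraries summed to 2905 to 5311 CPM, below all 12 insulin libraries. Astrocyte, microglial and interneuron lists had medians of -0.08, -0.10 and -0.04.

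The response to the rate was also set against that of the other 2 regions. In a model of all 52 libraries, the high minus low difference was tested against that of the hypothalamus (5 high and 6 low libraries) and of the nucleus accumbens (6 of each). Of 14985 genes, 0 (0%) passed an adjusted p of 0.05 for either difference, with 338 and 462 at an unadjusted p under 0.05 by edgeR. Of the genes that the naming rule allows, Syt9 had the smallest p for both: its log2 fold change was -2.79 in the hippocampus, 0.08 in the hypothalamus and 0.15 in the nucleus accumbens, and the difference from the nucleus accumbens was -2.94 with a standard error of 0.77. Zfp871 was at 2.42 in the hippocampus, -0.78 in the hypothalamus and 1.24 in the nucleus accumbens. Its uneven levels were not limited to the hippocampus. In the nucleus accumbens, 2 high libraries stood at 47.9 and 62.8 CPM (median of that group 9.74). In the hypothalamus Zfp871 held 1.52 to 5.76 CPM in the basal, 13.9 to 58.8 CPM in the low (median 17.8) and 8.45 to 20.8 CPM in the high libraries. Every insulin library of that region lay above its basal libraries. Lnpep reached 93.7 CPM in the low group of the hypothalamus, and 63.5 and 66.7 CPM in the same 2 accumbens libraries. Kdr was at -0.59 in the nucleus accumbens and -0.18 in the hypothalamus, and Stx3 at 0.04 and 0.06.

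No measure of depth or quality separated the 2 rates. Total counts were 3450400 to 5967638 in the high and 3797922 to 6219377 in the low libraries, with 18818 to 20968 genes detected. Total count, genes detected, mitochondrial share and the lean of a library to GC-rich or to long transcripts gave unadjusted p-values of 0.478 to 0.894 in exact 2-sided permutation tests over 924 splits, all with an adjusted p of 0.894. By their title tags, the 18 libraries fall into 6 runs of neighbouring numbers, each with 1 basal, 1 low and 1 high library. Some properties followed the run. The lean to GC-rich transcripts was 0.55, 0.54 and 0.60 in the basal, low and high libraries numbered 1 and -0.58, -0.58 and -0.61 in those numbered 2, where the mitochondrial share was 3.91%, 3.18% and 4.28%. The correlation of high and low deviations within a run lay between -0.20 and 0.52 over the 6 runs and was above 0.1 in 3. With the run as a batch term 0 genes were called, with 755 of 13515 at an unadjusted p under 0.05 by edgeR. The fit without that term had 384, and about 676 are expected by chance. Whether the count lay under or over chance thus depended on the fit. Within the highest range of tags, with 3 high and 3 low libraries, 0 were called and 1480 of 13748 were under 0.05. The other 2 ranges hold 2 libraries and 1 library per group and were not fitted alone.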

How the data were processed

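RNA of hippocampus, hypothalamus and nucleus accumbens was sequenced as stranded libraries, per the labels' protocols. The values are read counts per Ensembl gene, deposited by the authors without normalization; the submitters' processing notes name STAR, featureCounts and GRCm38.p4, with no options. Genes with shared or overlapping sequence are uncertain. The table holds 46071 genes, 14321 with no count in any library; GENCODE M21 named 45229, and the unnamed hold 0.0844% of counts. It has 0 columns without a sample.

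The 18 hippocampal libraries were fitted in edgeR 4.0.16 (R 4.3.3) with TMM scaling, filterByExpr and a robust quasi-likelihood model, and p-values were adjusted by Benjamini-Hochberg over all genes tested. Intervals are 95% and come from the model; CPM uses TMM-scaled totals. Chi-square per gene between libraries of a group was 3.77 to 46.7 over 45 pairs, so none was merged. The steps were tested on simulated counts. At these totals genes under 5 CPM rest on few counts.

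The rule names 12 genes per direction by smallest p among those with a mean of at least 5 CPM, as none was called, 3 members of each list, 16 fixed genes and 3 per difference between regions; further list members were picked with their values in view, and some genes that the rule takes are not reported here. Members, lists and tests were chosen with earlier results of these data known. Alternatives used DESeq2 1.42.0, limma-voom 3.58.1, sva 3.50.0, other filters and scalings, tag run and range, GC lean, choroid plexus sum, and leaving out each library. Leaving out high libraries 5 and 6, low libraries 1, 2 and 5 or libraries with a choroid plexus sum above 1000 CPM, and a thalamus and habenula covariate, were added after seeing the data, as were the list counts without single libraries.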

Additional observations from a re-analysis of the deposited data

Results flagged for a closer look

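Dixon's test at 95% was run in 160 groups of 6 libraries (41 named genes, the marker and pathway sums and 5 library properties, each at the high and the low rate). In 19 of them a library stood apart from the other 5. The test's rate of about 1 in 20 by chance holds for independent values from a normal distribution. These groups share libraries and genes, and some genes were chosen by p, so the 19 cannot be set against that rate.

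Alb was at 98.8 CPM in high library 3, against at most 16.4 CPM in the others. Syt9 was at 5.84 CPM in high library 5, against at most 3.38 CPM. Arc was at 72.5 CPM in high library 1, against at most 31.9 CPM. High library 1 also led the glycolysis sum (11970 against 8476 CPM for the next), the nuclear respiratory chain sum (6417 against 4372 CPM), the neuropeptide sum (1560 against 1045 CPM) and the microglial sum (372 against 292 CPM). High library 2 had 4.28% mitochondrial counts, with 2.35% in the next, and a mitochondrial sum of 29890 CPM against 18300 CPM. In the same tag runs, the glycolysis sum was 11140 CPM in basal library 1 and 9755 CPM in low library 1, and mitochondrial counts were 3.91% in basal library 2 and 3.18% in low library 2.

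Low library 5 was apart in 7 measures. It was lowest for Irs1 (4.20 CPM, next 16.0) and for the sodium and calcium channel sum (2972 CPM, next 4738). It was highest for Fkbp5 (221 CPM, next 140), the glucocorticoid sum (3279 CPM, next 2361), the myelin sum (18540 CPM, next 8770), the oligodendrocyte precursor sum (831 CPM, next 519.7) and the microglial sum (383 CPM, next 312). Low library 2 led the endothelial sum (378 CPM, next 343) and the thalamus and habenula sum (1030 CPM, next 469), and low library 6 the insulin receptor and adaptor sum (1457 CPM, next 1132).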

How the results depend on the processing

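The count of genes called was 0 under each of 34 alternatives (177 to 1480 genes at an unadjusted p under 0.05, the lowest without low libraries 1, 2 and 5 and the highest within the highest tag range; 228 to 1236 on leaving out 1 library, the highest without high library 1), and 0 under each of 5 alternatives for both differences between regions. The 1480 were of 13748 genes tested and the 1236 of 13628. No median log2 fold change over all genes moved by 0.1 under another scaling. Of 134 named genes, 47 had an unadjusted p under 0.05, and 35 of these kept 1 sign in all alternatives that gave a value. Over all genes 384 of 13515 (2.84%) had such a p. Most of the 134 were chosen by small p in these data, and the alternatives refit the same libraries. The 47 and the 35 are therefore no evidence of stability. Named genes with a larger p also changed sign. Sesn3 was -0.42 in place of 0.60 without high libraries 5 and 6. Foxo1 (-0.24), Foxo4 (0.34) and Insig1 (0.31) changed sign without libraries above 1000 CPM of choroid plexus markers. The changes given next are only those among the 47. Without high libraries 5 and 6, Lnpep (-0.27), mt-Atp6 (-0.66) and Kcnma1 (-0.16) changed sign. Without low libraries 1, 2 and 5, Tac2 (0.17), Pcp4 (0.15), Calb2 (0.0695) and Foxp2 (0.31) did. Without libraries above 1000 CPM of choroid plexus markers, Tac2 (0.66), Syt9 (0.22), Slc2a4 (0.15), mt-Atp6 (-0.85), Adcyap1 (0.23), Dsp (-0.065), Pcp4 (0.63), Calb2 (0.74), Cux2 (0.0084) and Foxp2 (0.022) did, with 2 libraries left at each rate. Foxp2 was 0.29 with the thalamus and habenula sum as a covariate. mt-Atp6 was -0.77 without choroid-rich libraries, and -0.60 to 2.16 on leaving out 1 library in turn, the lowest without high library 5. The causes of these changes were not tested. Depth limits genes below about 5 CPM, and 1 library per tag run and rate leaves no replicate within a run.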
